A study of Mus musculus with 12 samples.

Results

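Motile cilium genes and ciliogenesis factors were examined in RNA-seq of mouse type II alveolar epithelial (AT2) cells: 36 genes of the 55450 in the count table. They were chosen by symbol from a list of transcription and cell-cycle regulators of ciliogenesis, axonemal dyneins and their assembly factors, radial spoke, central apparatus, nexin and doublet proteins, and all 36 were found, *Dnai1* and *Dnai2* under the older symbols *Dnaic1* and *Dnaic2*. Cells were isolated from mice 6 to 8 weeks old on a C57BL/6 background, either *AhR f/f* (a floxed *Ahr* gene and no Cre) or *Sftpc-Cre;AhR f/f* (the same floxed gene with Cre, called knockout by that design). PBS or cockroach extract (CRE, 50 µg/ml) was added to cells of each genotype for 24 h, which gave 4 groups of 3 libraries, numbered 1 to 3 within a group. Cre was driven by *Sftpc*, so that the deletion was aimed at *Sftpc*-expressing cells, and both genotypes carried the floxed allele. Cells were enriched by removing those bound by antibodies to CD16/32, CD45, Ter119 and Sca-1, and whether this removes ciliated cells is not stated. Whether mice were pooled, and whether the libraries of a group came from separate mice, is not stated, so p-values measure the spread between libraries.

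Motile cilia beat by dynein motors that slide neighbouring microtubule doublets of the axoneme, while radial spokes, the central apparatus and nexin links turn sliding into bending. In the lung they are carried by multiciliated cells of the airways, where they move mucus, and AT2 cells of the alveoli are not known to carry them. Multiciliated cells are made under regulators such as MCIDAS and cyclin O, which act in the amplification of centrioles, and FOXJ1 and RFX factors, which switch on axonemal genes.

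*Ahr*, the targeted gene, was measured first. With PBS it was at 42.9, 43.8 and 45.1 CPM (counts scaled to the library total after TMM normalization) in *AhR f/f* libraries 1 to 3 and at 49.6, 40.2 and 45.7 in knockout libraries. With CRE it was at 56.2, 50.5 and 50.1 CPM in *AhR f/f* and at 51.5, 37.7 and 49.5 in knockout libraries. The genotypes overlapped under both treatments. The log2 difference of knockout from *AhR f/f* was 0.04 (SE 0.12) with PBS and -0.18 (SE 0.12) with CRE, with adjusted p = 0.990 and 0.964 from edgeR's quasi-likelihood test, Benjamini-Hochberg adjusted. The gene-level count covers all exons, and which exons are deleted is not given in the sources used here, so this count does not check the deletion. The paper reports the loss of AhR by co-staining with Sftpc in lung tissue and by RT-PCR of isolated AT2 cells. It also lists *Cyp1b1* as lower in knockout cells under both treatments, *Cyp1a1* with PBS and *Ahrr* with CRE.

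Total counts per library lay between 68878065 and 80935797. All 36 cilium genes passed the filter on low counts that left 20612 genes to test. For 35 of them the lowest count in any library was 75 (*Dnah12*), and *Mcidas* alone came near the floor of 3 counts that a count of 0 allows. The label of the cells was checked against markers: *Sftpc*, the surfactant protein of AT2 cells, had a mean of 4400 FPKM (counts scaled to library total and transcript length, which allows genes to be compared) and all 12 AT2 markers were tested. The club cell secretory gene *Scgb1a1* was higher, at 10233 FPKM, and *Ager* of AT1 cells was at 194 FPKM, so transcripts of airway and other epithelial genes were present beside those of AT2 cells. Compared with these the cilium genes were low. Their median was 1.35 FPKM beside 2.16 over all tested genes, 23 of 36 had a mean above 1 FPKM and 11 above 5.

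Before the comparisons, libraries that stood apart have to be named. The summed level of the 36 genes was 329, 366 and 456 CPM in *AhR f/f* libraries 1 to 3 with PBS, and 312, 345 and 433 with CRE. In knockout libraries it was 724, 456 and 468 CPM with PBS and 704, 441 and 456 with CRE. The pair of knockout libraries numbered 1 was thus far above the other libraries of that genotype, 1.57 times their mean with PBS and 1.57 times with CRE, and these were the 2 highest libraries for 31 of the 36 genes. *AhR f/f* library 3 was level with knockout libraries 2 and 3 with PBS. The highest library was 2.32 times the lowest. Because an RNA-seq library sums over its cells, more cells of a type and more RNA per cell cannot be told apart here. Log2 differences of the cilium genes between genotypes are therefore given with and without the knockout libraries numbered 1, a choice made after seeing the data.

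**Figure D1:**
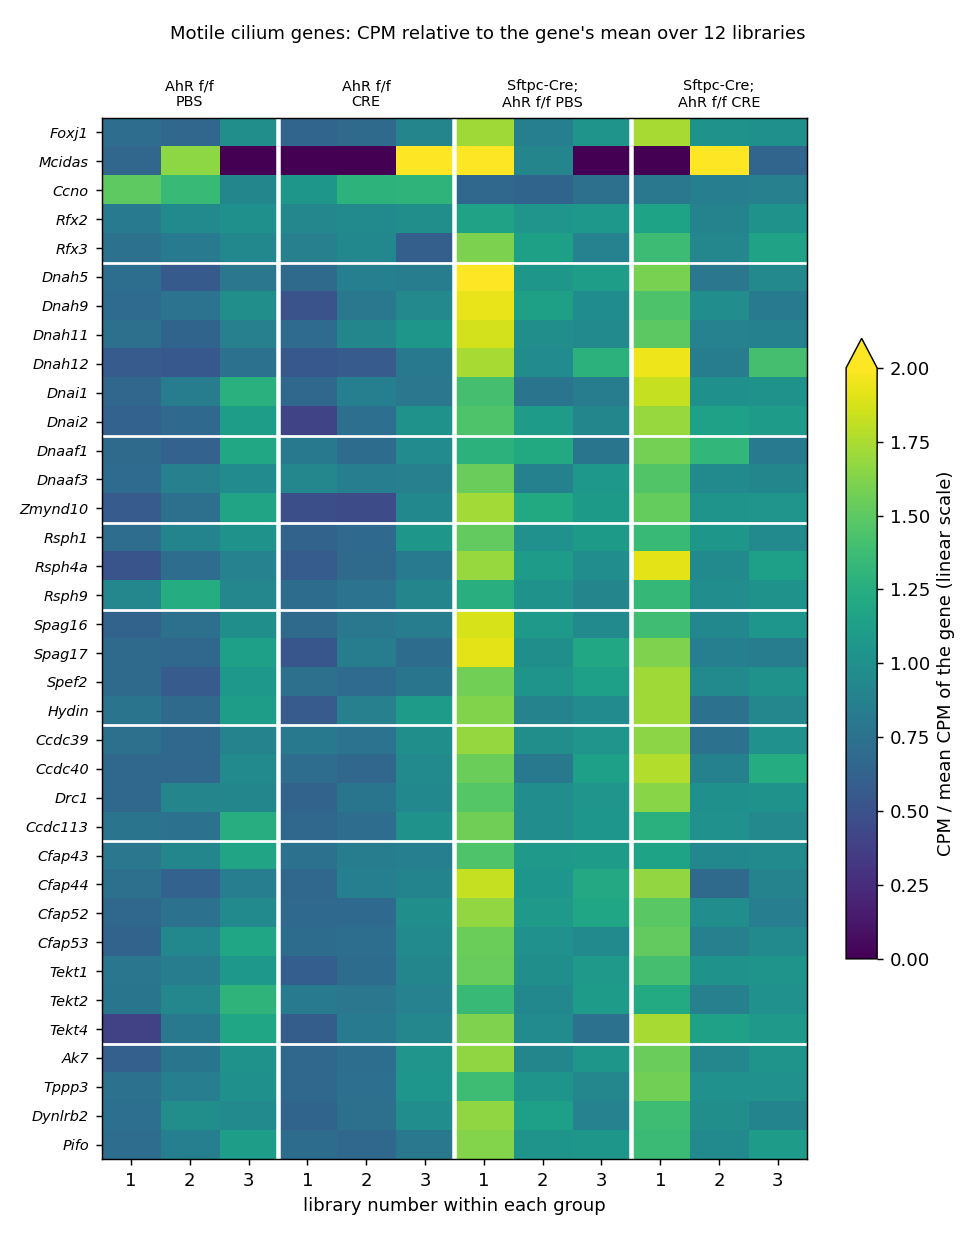
Level of each of the 36 genes (vertical axis, ordered by role, white lines between roles) in each of the 12 libraries (horizontal axis, library number within each group). Color is CPM divided by the gene's mean over the 12 libraries on a linear scale that ends at 2. Library 1 of both knockout groups is the brightest column for most genes, *Ccno* runs the other way, and *Mcidas*, with counts between 0 and 19, is scattered.

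Other cell type markers differed between the same libraries. The 12 AT2 markers summed to 7457 and 7718 CPM in knockout library 1 with PBS and with CRE, and to between 10350 and 14425 CPM in the other libraries. *Sftpc*, the most abundant of them, was at 3086 and 3216 CPM there and between 4591 and 6492 CPM elsewhere. The 15 club cell markers summed to 8464 CPM in knockout library 1 with PBS, 8090 in *AhR f/f* library 3 with PBS, 7175 in knockout library 1 with CRE and 6672 in *AhR f/f* library 3 with CRE, and to between 4240 and 5664 in the remaining libraries. Within each genotype, the libraries with the highest club cell sum were also those with the most cilium gene transcripts. Across genotypes the order was not shared. With PBS, knockout libraries 2 and 3 had cilium gene sums of 456 and 468 CPM, beside 456 CPM in *AhR f/f* library 3, but club cell sums at or below 5664 CPM. *Scgb1a1* made up most of the club cell sum, while the mucins *Muc5ac* and *Muc5b* stayed at or below 0.403 CPM in all 12 libraries. With PBS the mean sum was 6214 CPM in *AhR f/f* and 6284 CPM in knockout libraries, or 350 and 344 CPM without *Scgb1a1*. With CRE it was 5091.5 and 5620.6 CPM, or 416 and 440 CPM without *Scgb1a1*. Of the 15 club cell markers 6 were higher in knockout libraries with PBS (median log2 difference -0.07) and 8 with CRE (median 0.05). The 6 neuroendocrine markers summed to 7.77 and 8.93 CPM in knockout library 1 and to between 2.23 and 5.95 CPM in the others, with *Calca* the most abundant at 0.990 FPKM. Of these 6, 5 were higher in knockout libraries with PBS (median log2 difference 0.55) and 6 with CRE (median 0.74). Without the knockout libraries numbered 1, 5 were higher under each treatment, with medians of 0.34 and 0.26. With all 12 libraries edgeR called 0 of them, beside 0.15% and 0.17% of all genes. Of 6 basal cell markers *Trp63* was at or below 0.246 CPM in every library, and the list, led by *Krt17*, summed to between 15.7 and 25.9 CPM.

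Of the markers of blood cells, *Ptprc*, the gene of CD45, was at 66.5, 67.5, 54.2 and 47.4 CPM in the libraries numbered 1 of the 4 groups and between 2.19 and 20.7 CPM in the others. *Lyz1*, the most abundant of the 12 leukocyte markers, was ordered otherwise, at 491, 406 and 297 CPM in *AhR f/f* and at 162, 233 and 312 CPM in knockout libraries with PBS. The 12 markers summed to 792 and 713 CPM in *AhR f/f* library 1 with PBS and with CRE, but to 381 and 366 in knockout library 1, below the 395 and 390 CPM of knockout library 3. With PBS, *Lyz1* was 162 of the 381 CPM in knockout library 1 and 312 of the 395 CPM in knockout library 3. The other leukocyte markers thus summed higher in knockout library 1 than in knockout library 3 with PBS. *Lyz1* made up most of the list's sum. With PBS the mean sum was 537 CPM in *AhR f/f* and 360 CPM in knockout libraries, or 139 and 124 CPM without *Lyz1*. The 8 endothelial markers, led by *Pecam1*, summed to between 48.8 and 106 CPM, the 9 fibroblast and muscle markers, led by *Acta2*, to between 126 and 353 CPM, and the 5 mesothelial markers, led by the general epithelial keratin *Krt19*, to between 1602 and 2371 CPM. The 10 AT1 markers, led by *Ager*, summed to between 1243 and 2552 CPM. The part of these cell types in the levels of the cilium genes was not tested.

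**Figure D2:**
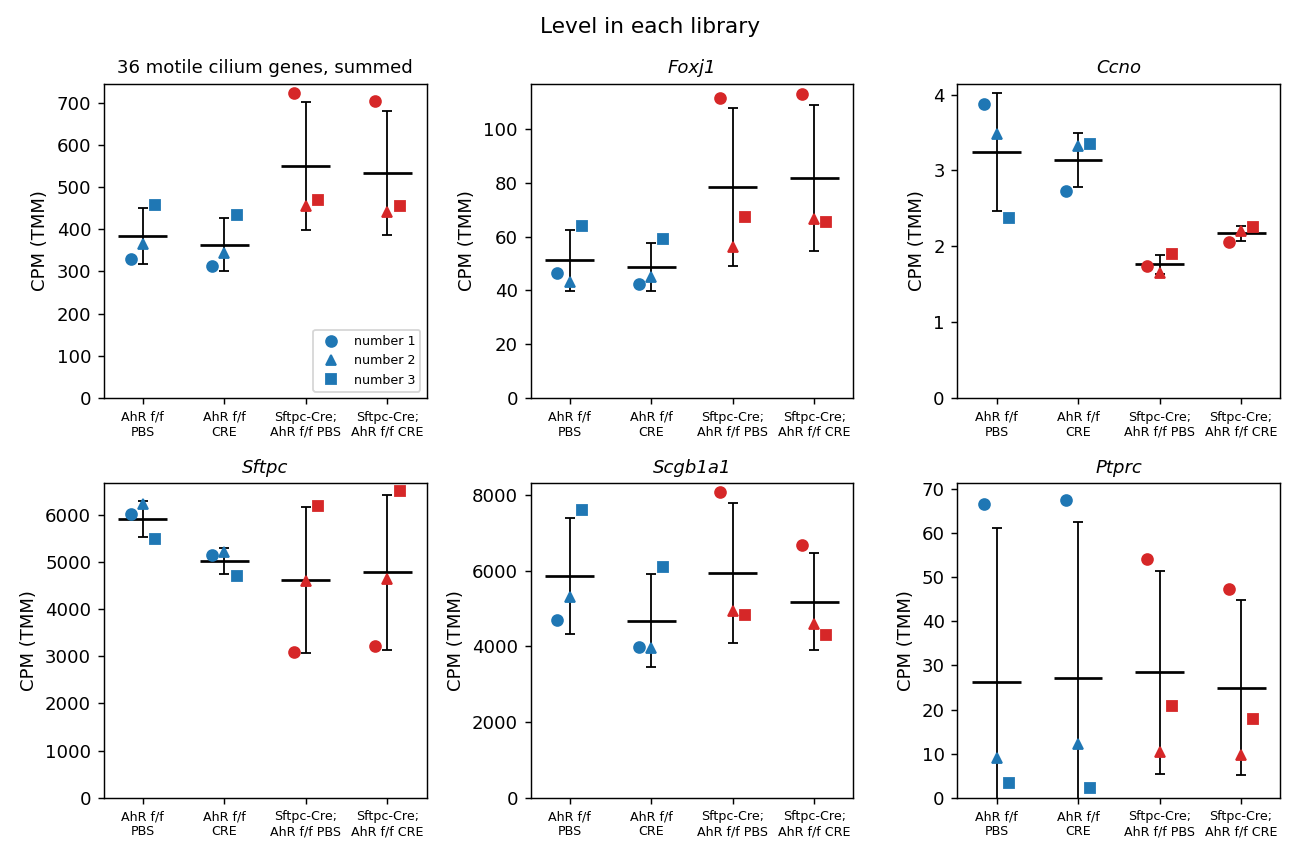
CPM (vertical axes, from 0) of the 36 summed cilium genes, *Foxj1*, *Ccno*, and the cell type markers *Sftpc*, *Scgb1a1* and *Ptprc* in the 4 groups, with 1 point per library, its shape giving the library number, and lines for the mean and the SD of 3 libraries (bars that would pass below 0 end at the axis). Knockout library 1 is highest for the summed cilium genes (724 and 704 CPM) and lowest for *Sftpc* (3086 and 3216 CPM).

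The effect of an *Sftpc*-driven deletion of *Ahr* was addressed first under PBS, by knockout against *AhR f/f* libraries. The summed level of the 36 genes was 549 ± 151 CPM (SD, n = 3) in knockout and 384 ± 65.6 CPM (SD, n = 3) in *AhR f/f* libraries, a ratio of 1.43, and the groups overlapped. The log2 difference was above 0 for 35 of 36 genes, also with size factors in the style of DESeq2 or with library size alone, and below 0 for *Ccno*. Its median was 0.49, beside -0.001 over all genes tested. Without both knockout libraries numbered 1 the ratio was 1.20 and the median 0.26, with 32 genes above 0. Without all 4 libraries numbered 1, also chosen after seeing the data, the median was 0.14, with 29 genes above 0. None of these differences passed edgeR's test. Of the 36 genes, edgeR called 0 at an adjusted p of 0.05, where it called 0.15% of all genes tested, and the smallest adjusted p among them was 0.244 (edgeR's quasi-likelihood test, Benjamini-Hochberg adjusted). At an unadjusted p under 0.05, 10 genes were higher and 1 was lower, against 3.76% and 4.6% of all genes. These counts were 5 and 1 without both knockout libraries numbered 1, against 2.52% and 3.69%, and 2 and 1 without all 4 libraries numbered 1, against 3.68% and 4.14%. Limma with Benjamini-Hochberg adjustment called 0 of the 36, beside 0.175% of all genes, and DESeq2 called 1, *Ccno*, beside 1.18% of all genes.

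Under CRE the same comparison gave much the same values. CRE and PBS libraries of a number were alike, so this does not repeat the first comparison on independent libraries. The fit of 4 group means treated all 12 libraries as independent. The summed level was 533 ± 148 CPM (SD, n = 3) in knockout and 363 ± 62.7 CPM (SD, n = 3) in *AhR f/f* libraries, a ratio of 1.47. Here the groups did not overlap, but the lowest knockout library (441 CPM) lay just above the highest *AhR f/f* library (433 CPM). The log2 difference was above 0 for 35 of 36 genes, again with *Ccno* as the exception and again under both other scalings, and its median was 0.52 beside -0.003 over all genes. Without both knockout libraries numbered 1 the ratio was 1.23 and the median 0.32, with 32 genes above 0, and without all 4 libraries numbered 1 the median was 0.17, with 30 genes above 0. Of the 36 genes edgeR called 0, where 0.17% of all genes were called, with a smallest adjusted p of 0.597 from edgeR's quasi-likelihood test, Benjamini-Hochberg adjusted. At an unadjusted p under 0.05, 12 genes were higher and 1 was lower, against 2.94% and 3.01% of all genes. Without both knockout libraries numbered 1 the counts were 4 and 0, against 1.98% and 2.98%, and without all 4 libraries numbered 1 they were 1 and 0, against 2.22% and 3.52%. DESeq2, which called 0.844% of all genes, and limma with Benjamini-Hochberg adjustment, which called 0.184%, called 0 of the 36.

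The rule in the methods of the study, an unadjusted p under 0.05 with an absolute log2 difference above 0.5 in limma, admitted more genes. With PBS it took 9 cilium genes as higher in knockout cells and 1 as lower, against 2.34% and 1.76% of all genes. The 9 were *Dnah5*, *Dnah11*, *Dnah12*, *Rsph4a*, *Spag16*, *Spef2*, *Ccdc39*, *Cfap44* and *Cfap52*. With CRE it took 12 as higher and 1 as lower, against 1.72% and 1.7%. The 12 were *Foxj1*, *Dnah12*, *Dnai2*, *Zmynd10*, *Rsph1*, *Rsph4a*, *Spef2*, *Ccdc40*, *Drc1*, *Tekt1*, *Tppp3* and *Pifo*. The lower gene was *Ccno* each time, and *Dnah12*, *Rsph4a* and *Spef2* were admitted as higher under both treatments. Both totals rested on single libraries. The total of 10 with PBS, beside 4.1% of all genes, was 2 without knockout library 1 of that group, 17 without its library 2, 14 without its library 3, and 4, 5 and 19 without *AhR f/f* library 1, 2 and 3, while the share of all genes lay between 3.54% and 4.66% over these fits. The total of 13 with CRE, beside 3.42% of all genes, was 0, 13 and 14 without knockout library 1, 2 and 3 of that group, and 3, 7 and 17 without *AhR f/f* library 1, 2 and 3, with shares of all genes between 3.07% and 4.15%. With the CRE and PBS counts of a number summed within a genotype, 3 libraries against 3, edgeR called 0 of the 36, beside 0.0805% of all genes, and limma's rule admitted 13 as higher, beside 1.69% of all genes, and 1 as lower, beside 1.34%.

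The levels of the 3 libraries did not overlap between genotypes for 10 genes with PBS, 9 of them higher in knockout cells, where 6.6% of all genes were higher and 7.38% lower without overlap. With CRE 14 genes were higher without overlap and 1 was lower, where the shares of all genes were 5.56% and 5.43%.

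**Figure D3:**
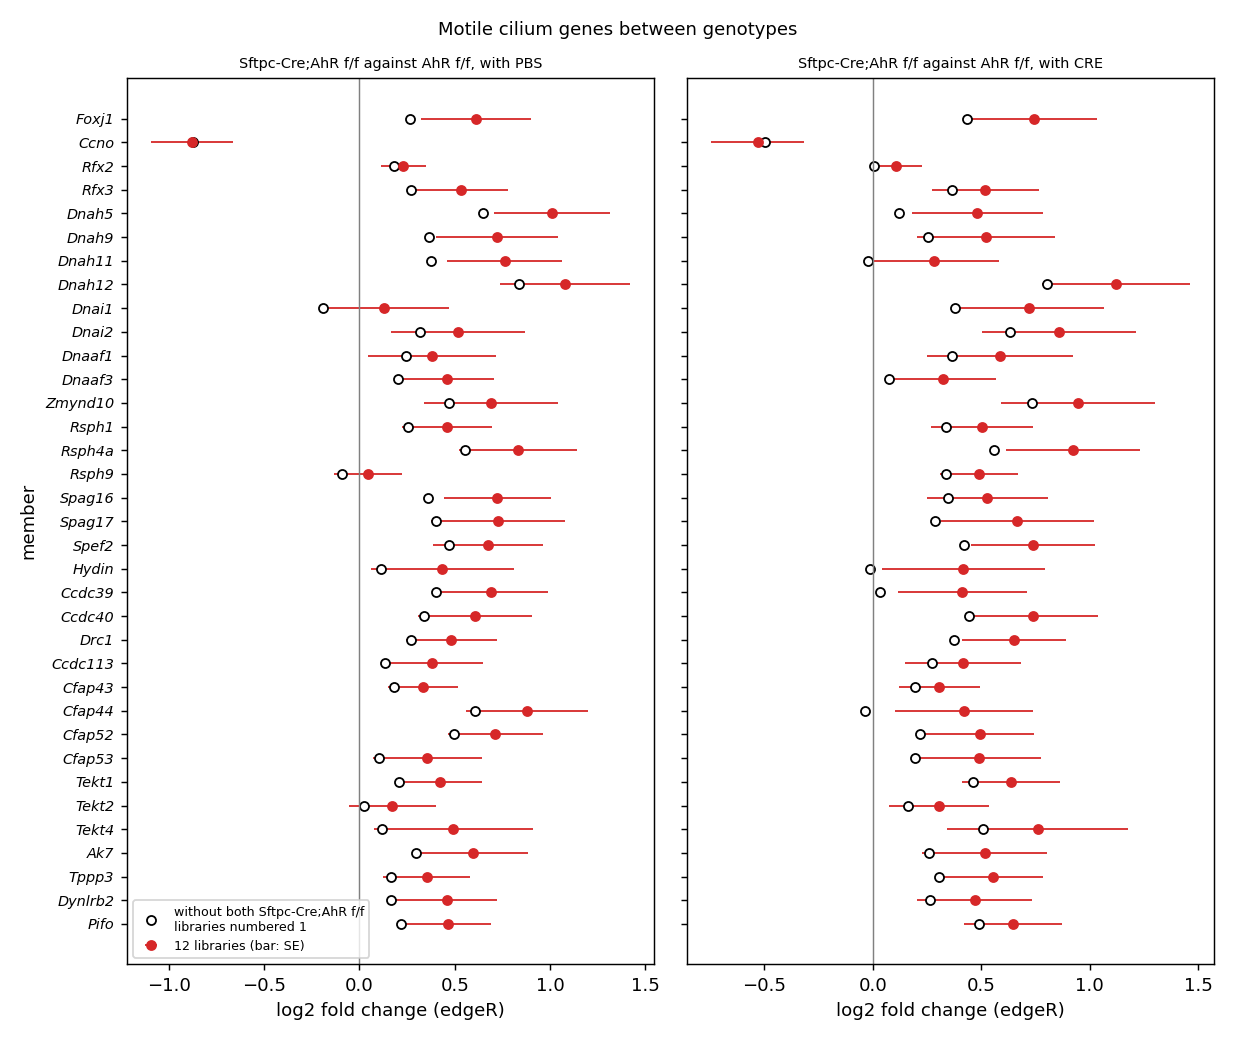
Log2 difference of knockout from *AhR f/f* cells (horizontal axes, edgeR) for 35 of the 36 genes (vertical axis, ordered by role, *Mcidas* left out for its low counts) with PBS on the left and with CRE on the right. Filled points are all 12 libraries with bars of 1 SE, and open points are without the knockout libraries numbered 1. Open points lie nearer to 0 for nearly all genes, and *Ccno* lies at -0.88 with PBS and -0.53 with CRE.

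Of the ciliogenesis factors, *Foxj1* (ENSMUSG00000034227, chr11:116330704-116335399 of GRCm38), the forkhead factor of motile ciliogenesis, was the most abundant, at a mean of 22.3 FPKM. With PBS it was at 46.5, 43.0 and 64.0 CPM in *AhR f/f* and at 112, 56.1 and 67.1 CPM in knockout libraries. With CRE, levels were 42.3, 45.0 and 59.1 CPM in *AhR f/f* and at 113, 66.7 and 65.4 CPM in knockout libraries. Knockout library 1 was the highest of each treatment, and the genotypes overlapped with PBS but not with CRE. The log2 difference between genotypes was 0.61 (SE 0.29) with PBS and 0.74 (SE 0.29) with CRE, and 0.27 and 0.43 without the knockout libraries numbered 1. Neither difference passed the test (adjusted p = 0.612 and 0.786, edgeR's quasi-likelihood test, Benjamini-Hochberg adjusted).

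*Ccno* (ENSMUSG00000042417, chr13:112987802-112990777), which encodes cyclin O, ran against the other members. With PBS it was at 3.88, 3.48 and 2.37 CPM in *AhR f/f* and at 1.74, 1.65 and 1.90 CPM in knockout libraries. Under CRE it was at 2.73, 3.32 and 3.36 CPM in *AhR f/f* and at 2.06, 2.20 and 2.26 CPM in knockout libraries. Every knockout library was below every *AhR f/f* library of its treatment, and library 1 did not stand apart. Its log2 difference between genotypes was -0.88 (SE 0.22) with PBS and -0.53 (SE 0.22) with CRE, and -0.87 and -0.50 without the knockout libraries numbered 1. With PBS the adjusted p was 0.244 from edgeR's quasi-likelihood test, Benjamini-Hochberg adjusted, and 0.0177 by DESeq2, which alone called it among the tools tried, and over all alternatives tried it lay between 0.0177 and 0.719. With CRE the adjusted p was 0.798 from edgeR's quasi-likelihood test, Benjamini-Hochberg adjusted, and 0.485 by DESeq2.

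*Mcidas* (chr13:112993845-113000394), the coactivator that starts multiciliation, lies 3067 bases past *Ccno* on the same strand, the only members within 1 Mb of each other. It had 4, 9 and 0 counts in *AhR f/f* libraries with PBS and 0, 0 and 19 with CRE. In knockout libraries it had 13, 6 and 0 counts with PBS and 0, 17 and 4 with CRE. Each group held a library with 4 counts or fewer and one with 9 or more, and the libraries of a group differed by more than the floor of 3 counts. No difference between groups passed the test. The 36 genes lay on 17 chromosomes.

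*Rfx2* and *Rfx3* encode factors that bind the X-box of ciliary promoters. *Rfx2* varied less than *Foxj1* and was between 13.3 and 15.9 CPM in the *AhR f/f* libraries of both treatments and between 14.3 and 18.5 CPM in the knockout libraries. Its log2 difference between genotypes was 0.23 (SE 0.12) with PBS, where the groups did not overlap, and 0.11 (SE 0.12) with CRE, where they did, and 0.18 and 0.01 without the knockout libraries numbered 1. *Rfx3* was between 6.40 and 9.97 CPM in *AhR f/f* and between 9.40 and 17.1 CPM in knockout libraries, again with library 1 on top. Its log2 difference was 0.53 (SE 0.25) with PBS and 0.52 (SE 0.25) with CRE, and 0.27 and 0.37 without the knockout libraries numbered 1.

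Among the dynein arm genes the heavy chain *Dnah12* showed the largest log2 difference of the 36 genes under both treatments. With PBS it was at 1.15, 1.11 and 1.52 CPM in *AhR f/f* and at 3.49, 1.93 and 2.58 CPM in knockout libraries. With CRE it was at 1.11, 1.15 and 1.62 CPM in *AhR f/f* and at 3.92, 1.69 and 2.83 CPM in knockout libraries. The genotypes did not overlap under either treatment, and libraries 1 and 3 of knockout cells were both high. The log2 difference was 1.08 (SE 0.34) with PBS and 1.12 (SE 0.34) with CRE, and 0.84 and 0.80 without the knockout libraries numbered 1, with adjusted p = 0.435 and 0.597 for all 12 libraries (edgeR's quasi-likelihood test, Benjamini-Hochberg adjusted). It was also among the least abundant members, at 0.150 FPKM.

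*Dnah5*, the heavy chain of the outer arm, was at 9.22, 7.21 and 10.1 CPM in *AhR f/f* and at 25.6, 13.5 and 14.3 CPM in knockout libraries with PBS, which did not overlap. With CRE, levels were 8.76, 11.0 and 10.7 CPM in *AhR f/f* and at 20.4, 10.1 and 12.0 CPM in knockout libraries. Here the groups overlapped, since knockout library 2 lay between *AhR f/f* libraries. Its log2 difference between genotypes was 1.01 (SE 0.30) with PBS and 0.48 (SE 0.30) with CRE, or 0.65 and 0.12 without the knockout libraries numbered 1. *Dnah11*, another outer arm chain, had log2 differences of 0.76 with PBS and 0.28 with CRE. Without the knockout libraries numbered 1 they were 0.37 and -0.02. For the intermediate chain genes the difference with CRE was the larger of the pair. *Dnai2* had a log2 difference of 0.52 (SE 0.35) with PBS and 0.86 (SE 0.35) with CRE, or 0.32 and 0.63 without the knockout libraries numbered 1. *Dnai1* had 0.13 (SE 0.34) with PBS and 0.72 (SE 0.34) with CRE, which became -0.19 and 0.38 without the knockout libraries numbered 1. *Dnah9* lay at 0.72 and 0.52, and at 0.37 and 0.25 without those libraries. For none of the 6 dynein arm genes did the genotype difference pass a test of its change with treatment. In edgeR's quasi-likelihood test, Benjamini-Hochberg adjusted, the adjusted p of the interaction was 1.00 for all 6, and the unadjusted p was 0.242 or more.

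Of the dynein assembly factors, which prepare the arms in the cytoplasm, *Zmynd10* was at 2.43, 3.12 and 4.93 CPM in *AhR f/f* and at 7.25, 5.11 and 4.59 CPM in knockout libraries with PBS. Under CRE it was at 2.02, 1.97 and 3.92 CPM in *AhR f/f* and at 6.44, 4.37 and 4.41 CPM in knockout libraries. *AhR f/f* library 3 reached into the knockout range with PBS but stayed below it with CRE. The log2 difference was 0.69 (SE 0.35) with PBS and 0.94 (SE 0.35) with CRE, and 0.47 and 0.73 without the knockout libraries numbered 1. *Dnaaf3* had 0.46 and 0.33 and *Dnaaf1* 0.38 and 0.58, and both overlapped between genotypes. Without those libraries *Dnaaf3* had 0.20 and 0.08 and *Dnaaf1* 0.25 and 0.37.

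Radial spoke genes were among the better expressed members, with *Rsph1* at 14.2 and *Rsph9* at 9.57 FPKM. *Rsph4a*, a spoke head gene, was at 6.12, 8.40 and 10.4 CPM in *AhR f/f* and at 19.9, 13.0 and 11.5 CPM in knockout libraries with PBS. With CRE it was at 6.86, 8.11 and 9.78 CPM in *AhR f/f* and at 22.6, 11.1 and 13.2 CPM in knockout libraries. The genotypes did not overlap under either treatment, and library 1 of knockout cells was far above the others. Its log2 difference between genotypes was 0.83 (SE 0.31) with PBS and 0.92 (SE 0.31) with CRE, and 0.56 under both treatments without the knockout libraries numbered 1. *Rsph9* was at 15.8, 21.1 and 15.8 CPM in *AhR f/f* and at 21.4, 17.5 and 15.6 CPM in knockout libraries with PBS. With CRE, levels were 12.0, 13.0 and 15.6 CPM in *AhR f/f* and at 22.8, 16.8 and 17.5 CPM in knockout libraries. It thus overlapped with PBS (log2 difference 0.05, SE 0.18) and not with CRE (0.49, SE 0.18). *Rsph1* had 0.46 (SE 0.24) with PBS and 0.50 (SE 0.24) with CRE. Without the knockout libraries numbered 1 the differences were -0.09 and 0.34 for *Rsph9* and 0.26 and 0.34 for *Rsph1*.

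The central apparatus genes summed to 28.2 ± 9.00 CPM in knockout and 17.9 ± 5.02 CPM in *AhR f/f* libraries with PBS (SD, n = 3), and to 25.8 ± 8.57 and 17.0 ± 2.15 CPM with CRE, where knockout library 1 was the highest each time at 38.6 and 35.6 CPM. *Spef2*, a protein of the central pair needed for ciliary beating, was at 5.11, 4.24 and 7.86 CPM in *AhR f/f* and at 11.6, 7.60 and 8.29 CPM in knockout libraries with PBS. Under CRE it was at 5.46, 5.17 and 5.74 CPM in *AhR f/f* and at 12.7, 7.08 and 7.59 CPM in knockout libraries. Only with CRE did the genotypes not overlap. Its log2 difference was 0.68 (SE 0.29) with PBS and 0.74 (SE 0.29) with CRE, and 0.47 and 0.42 without the knockout libraries numbered 1. *Spag16* had 0.72 and 0.53, *Spag17* 0.73 and 0.67, and *Hydin*, the gene of a large central pair protein, 0.43 and 0.42. Without those libraries *Spag16* had 0.36 and 0.35, *Spag17* 0.40 and 0.29, and *Hydin* 0.11 and -0.01. *Hydin* and *Spag17* were at 0.215 and 0.440 FPKM.

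*Ccdc39* and *Ccdc40* encode the ruler that sets the spacing of arms and spokes along the doublet. *Ccdc39* was at 6.63, 5.96 and 8.00 CPM in *AhR f/f* and at 15.0, 8.83 and 9.35 CPM in knockout libraries with PBS, without overlap. With CRE it was at 7.23, 6.80 and 8.88 CPM in *AhR f/f* and at 14.8, 6.65 and 9.05 CPM in knockout libraries, which overlapped. Its log2 difference between genotypes was 0.69 (SE 0.30) with PBS and 0.41 (SE 0.30) with CRE, and 0.40 and 0.04 without the knockout libraries numbered 1. *Ccdc40* had 0.61 (SE 0.30) and 0.74 (SE 0.30), and 0.34 and 0.44 without those libraries. *Drc1*, a nexin link gene and the most abundant of this role at 8.21 FPKM, was between 15.5 and 22.8 CPM in *AhR f/f* and between 23.9 and 40.3 CPM in knockout libraries, which did not overlap under either treatment. Its log2 difference was 0.48 (SE 0.24) with PBS and 0.65 (SE 0.24) with CRE, or 0.27 and 0.37 without the knockout libraries numbered 1.

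Of the 7 genes of doublet proteins and tektins, all had log2 differences above 0 between genotypes under both treatments, with a median of 0.42 with PBS and 0.49 with CRE. Without the knockout libraries numbered 1 the median was 0.18 with PBS and 0.20 with CRE, and *Cfap44* with CRE was below 0. *Cfap52*, a protein of the doublet lumen, was at 16.5, 18.3 and 23.4 CPM in *AhR f/f* and at 40.8, 26.2 and 28.6 CPM in knockout libraries with PBS. With CRE, levels were 16.7, 16.7 and 24.2 CPM in *AhR f/f* and at 36.2, 23.9 and 20.8 CPM in knockout libraries, so that the genotypes overlapped with CRE and not with PBS. Its log2 difference was 0.71 with PBS and 0.49 with CRE, or 0.49 and 0.22 without the knockout libraries numbered 1. *Cfap44* had a log2 difference of 0.88 (SE 0.32) with PBS and 0.42 (SE 0.32) with CRE, and 0.61 and -0.04 without the knockout libraries numbered 1. *Tekt1*, a filament protein of the doublet wall, had 0.42 (SE 0.22) with PBS and 0.64 (SE 0.22) with CRE. *Tekt2* had 0.17 and 0.30, and *Cfap43* 0.33 and 0.31. Without those libraries *Tekt1* had 0.21 and 0.46, *Tekt2* 0.02 and 0.16, and *Cfap43* 0.18 and 0.20.

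*Tppp3*, a tubulin-binding protein also made outside ciliated cells, was the most abundant member at 27.8 FPKM. With PBS it was at 43.0, 48.7 and 57.4 CPM in *AhR f/f* and at 78.6, 59.2 and 52.8 CPM in knockout libraries. Under CRE it was at 38.2, 41.7 and 60.1 CPM in *AhR f/f* and at 90.0, 57.7 and 58.0 CPM in knockout libraries. The genotypes overlapped under both treatments, through *AhR f/f* library 3. Its log2 difference was 0.35 (SE 0.23) with PBS and 0.55 (SE 0.23) with CRE, and 0.17 and 0.31 without the knockout libraries numbered 1. *Dynlrb2*, a light chain of cytoplasmic dynein, came next but for *Foxj1*, at 15.4 FPKM. *Pifo*, a gene of ciliary assembly and disassembly, had a log2 difference of 0.47 (SE 0.23) with PBS and 0.65 (SE 0.23) with CRE, where the genotypes did not overlap. Without the knockout libraries numbered 1 the difference of *Pifo* was 0.22 and 0.49.

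The response to CRE was small for these genes in both genotypes. In *AhR f/f* cells the summed level with CRE was 0.949, 0.942 and 0.949 times that with PBS for libraries 1 to 3, and in knockout cells 0.972, 0.967 and 0.974 times. All 6 ratios lay just under 1, and the spread between numbers was far wider than the spread between treatments of a number. In *AhR f/f* cells 10 genes were higher with CRE and 26 lower, with a median log2 difference of -0.06. In knockout cells 13 were higher and 23 lower, with a median of -0.07. Leaving out a single library moved these medians to either side of 0, between -0.24 and 0.09 in *AhR f/f* and between -0.28 and 0.19 in knockout cells. Each of these fits kept the library of the same number under the other treatment, so its median also holds differences between numbers. Of the 36 genes edgeR called 0 in *AhR f/f* cells, where it called 0.233% of all genes, and 0 in knockout cells, where it called 0.262%. At an unadjusted p under 0.05 the count was 0 in both, beside 9.36% and 6.48% of all genes, and the study's rule took 0 in both, beside 4.11% and 3.38%. DESeq2 called 0 in both, beside 1.98% and 1.23% of all genes, and limma with Benjamini-Hochberg adjustment called 0 in both, beside 0.243% and 0.296%. Fits with the library number as a replicate block called 0 in both, beside 0.665% and 0.543% of all genes with 1 term for the number and 3.63% and 2.13% with the block within each genotype. The smallest adjusted p was 0.561 (*Rsph9*) and 0.950 (*Ccno*) from edgeR's quasi-likelihood test, Benjamini-Hochberg adjusted, and 0.121 and 0.242 with a block within each genotype.

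*Rsph9* was the 1 member whose *AhR f/f* libraries did not overlap between treatments, with 12.0, 13.0 and 15.6 CPM with CRE below 15.8, 21.1 and 15.8 with PBS (log2 difference -0.38, SE 0.18), where 7.66% of all genes were lower without overlap. *Ccno* was the 1 member whose knockout libraries did not overlap, at 2.06, 2.20 and 2.26 CPM with CRE above 1.74, 1.65 and 1.90 with PBS (log2 difference 0.30, SE 0.22), where the share of all genes was 6.49%. *Foxj1* had log2 differences of -0.07 (SE 0.29) in *AhR f/f* and 0.06 (SE 0.29) in knockout cells. The interaction, the difference between genotypes in the response to CRE, had a median of 0.04 over the 36 genes, and edgeR called 0 of them, as it did of all genes tested (0.0%). At an unadjusted p under 0.05 the count was 0, where it was 3.7% of all genes, and DESeq2, which called 0.112% of all genes, and limma with Benjamini-Hochberg adjustment, which called 0% of all genes, called 0 as well, and the study's rule took 0, where it took 2.3% of all genes.

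The members varied together from library to library. Each gene's log2 CPM was correlated with the mean of the other members over the 12 libraries, as a description, since CRE and PBS libraries of a number are alike and the 12 points are not independent. The median Pearson r was 0.91, and 31 of the 36 genes were above 0.8. With the group means removed the median r was 0.89, with 31 genes above 0.8, so the shared pattern was also present within groups. *Ak7*, an adenylate kinase of the axoneme, and *Foxj1* followed the others most closely, at 0.98 and 0.97. Over the 12 libraries *Ccno* was at -0.74 and *Mcidas* at 0.08, and *Rsph9*, *Rfx3* and *Dnaaf1* were at 0.72, 0.74 and 0.76. With the group means removed *Ccno* was at -0.37 and *Mcidas* at -0.01, and *Rsph9*, *Rfx3* and *Dnaaf1* were at 0.68, 0.50 and 0.64. Outside the list 351 of 20576 genes (1.71%) had r above 0.8 with the mean of the members.

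The 20 genes most like the members had r between 0.95 and 0.98. Axonemal genes led by the dynein heavy chain *Dnah3* (0.98) were *Cfap206*, *Dnali1*, *Drc3* and *Dnah6*, which all stood on a wider cilium list. The others were *Ttc21a*, *Fam167a*, *Usp18*, *Ubxn10*, *Gm28729*, *Col8a2*, *Tmem67*, *2410004P03Rik*, *Vwa3a*, *Acox2*, *Mtmr7*, *Rp1*, *Fhad1*, *Mr1* and *Pcp4l1*. *Dnah3* was at 1.17, 1.32 and 2.47 CPM in *AhR f/f* and at 5.95, 2.71 and 2.44 CPM in knockout libraries with PBS. Among the marker lists, the mesothelial and secretory gene *Msln* was at 0.88, *Calca* at 0.82 and *Scgb1a1* at 0.75, while *Sftpc* was at -0.75 and *Lyz1* at -0.93. *Msln* and *Lyz1* differed from their lists, since the mesothelial list had a median of -0.29 and the leukocyte list a median of 0.08, with *Ptprc* at 0.09. All 15 club cell markers had r below 0.8, with a median of 0.43, and the 12 AT2 markers had a median of -0.60.

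In 3 wider cilium lists knockout library 1 had the highest summed level under each treatment, while the order of the other libraries differed from that of the members. Of 76 further genes of the motile axoneme 74 were tested, and their summed level was 709.6 ± 92.2 CPM in *AhR f/f* and 855 ± 97.9 CPM in knockout libraries with PBS (SD, n = 3). The log2 difference between genotypes was above 0 for 68 of them with PBS (median 0.36) and for 70 with CRE (median 0.47), and without the knockout libraries numbered 1 for 59 (median 0.16) and 62 (median 0.20). Their most abundant gene, *Sec14l3*, at 39.0 FPKM, did not share the pattern (r = 0.11), while 39 of the 74 had r above 0.8 with the members. Of 15 genes of the multiciliation program 13 were tested, led by *E2f4* at 27.0 FPKM, and 11 were higher in knockout cells with PBS (median 0.22) and 12 with CRE (median 0.09), or 9 (median 0.15) and 9 (median 0.14) without those libraries. Of 37 genes of intraflagellar transport, which also serves primary cilia, 30 were higher under each treatment, with medians of 0.15 and 0.12, or 26 and 27 with medians of 0.10 and 0.06 without those libraries, and the most abundant, *Ift20*, had r = -0.62. No gene of these 3 lists was called by edgeR in the comparison of genotypes under either treatment. At an unadjusted p under 0.05, 13 axoneme, 2 multiciliation and 2 transport genes were higher with PBS, beside 3.76% of all genes. With CRE 18, 1 and 3 were higher, beside 2.94% of all genes, and 1 transport gene was lower, beside 3.01%. Leaving out both knockout libraries numbered 1 left 4, 1 and 0 higher with PBS, beside 2.52% of all genes, and 8, 1 and 0 with CRE, beside 1.98%, and 1 transport gene was lower under each treatment, beside 3.69% and 2.98% of all genes.

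The promoters of the members were also read for motifs of the factors known to act on them. Why the members moved together was not tested by this search. The RefSeq promoters at hand (GRCm38.p6) included 34 promoters of 30 members, each from 250 bases before to 50 bases after a transcript start, and did not include *Foxj1*, *Dnaaf1*, *Rsph1*, *Rsph4a*, *Tppp3* or *Cfap53*. Both strands were searched for the X-box core GTTNCCATG, the shorter X-box half-site GTTGCC and the forkhead motif TGTTTAC. A core with G at its open position contains the half-site, and the 3 cores found do not. The core was in 3 of 34 promoters (8.82%), beside 1.93% of all 32851 promoters. The half-site was in 18 of 34 (52.9%), beside 12.5% of all promoters. By gene it was in 17 of 30 (56.7%), beside 14.1% of all genes with a promoter. Overlapping promoters of *Tekt2* that hold the same sites are both counted among the 18. The forkhead motif was in 2 of 34 (5.88%), beside 3.65%. A match describes these letters in this window and does not show a bound site.

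The promoters with an X-box core or a forkhead motif, and that of *Ccno*, which ran against the other members, are printed 5′ to 3′ on the strand of the gene, with the matched letters in capitals. *Dnah5* (chr15:28203516-28203815, plus strand) holds the core 68 bases before the start on the opposite strand, *Zmynd10* (chr9:107547054-107547353, plus strand) holds it from base 1 of the transcript on and a half-site from base 40 on the opposite strand, and *Cfap52* (chr11:67965593-67965892, minus strand) holds it 16 bases before the start. *Cfap43* (chr19:47837312-47837611, minus strand) holds the forkhead motif 55 bases before the start on the opposite strand and *Ak7* (chr12:105705732-105706031, plus strand) 131 bases before it. *Ccno* (chr13:112987552-112987851, plus strand) holds a half-site 219 bases before the start.
Dnah5: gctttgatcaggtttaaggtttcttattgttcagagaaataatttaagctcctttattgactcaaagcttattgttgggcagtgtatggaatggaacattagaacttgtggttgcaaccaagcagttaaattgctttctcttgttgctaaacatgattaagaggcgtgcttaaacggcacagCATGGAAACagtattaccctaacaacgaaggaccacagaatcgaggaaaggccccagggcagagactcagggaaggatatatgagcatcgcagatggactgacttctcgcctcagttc
Zmynd10: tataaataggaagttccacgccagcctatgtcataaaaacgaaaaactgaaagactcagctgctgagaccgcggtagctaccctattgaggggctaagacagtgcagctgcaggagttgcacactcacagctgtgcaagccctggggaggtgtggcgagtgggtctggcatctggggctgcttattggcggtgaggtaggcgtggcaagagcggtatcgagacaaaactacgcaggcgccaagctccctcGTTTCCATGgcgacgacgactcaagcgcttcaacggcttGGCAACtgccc
Cfap52: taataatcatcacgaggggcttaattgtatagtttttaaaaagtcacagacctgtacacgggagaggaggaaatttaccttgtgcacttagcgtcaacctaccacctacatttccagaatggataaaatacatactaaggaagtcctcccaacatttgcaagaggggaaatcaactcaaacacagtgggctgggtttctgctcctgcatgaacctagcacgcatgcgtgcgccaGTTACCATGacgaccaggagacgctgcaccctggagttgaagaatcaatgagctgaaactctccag
Cfap43: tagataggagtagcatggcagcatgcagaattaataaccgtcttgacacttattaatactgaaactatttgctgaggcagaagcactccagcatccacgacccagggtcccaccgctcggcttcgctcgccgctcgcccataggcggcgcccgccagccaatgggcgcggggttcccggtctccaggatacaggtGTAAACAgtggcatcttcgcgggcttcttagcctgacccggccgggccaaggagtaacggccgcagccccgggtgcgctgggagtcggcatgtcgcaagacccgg
Ak7: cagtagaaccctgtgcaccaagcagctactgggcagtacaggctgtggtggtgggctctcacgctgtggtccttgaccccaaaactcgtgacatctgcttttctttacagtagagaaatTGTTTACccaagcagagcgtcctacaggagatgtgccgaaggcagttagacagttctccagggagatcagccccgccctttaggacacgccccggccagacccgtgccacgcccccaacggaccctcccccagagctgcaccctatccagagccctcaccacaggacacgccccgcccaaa
Ccno: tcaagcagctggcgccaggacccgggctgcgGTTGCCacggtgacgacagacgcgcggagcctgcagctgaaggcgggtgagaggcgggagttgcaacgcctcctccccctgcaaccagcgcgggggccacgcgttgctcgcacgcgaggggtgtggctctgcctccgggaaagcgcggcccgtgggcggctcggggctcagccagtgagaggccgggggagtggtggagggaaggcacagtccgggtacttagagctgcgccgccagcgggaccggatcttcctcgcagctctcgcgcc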

How the data were processed

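RNA-seq of 12 libraries was used, with groups taken from the labels. The authors prepared stranded mRNA libraries, aligned reads to GRCm38 with STAR 2.7.2b and used Salmon for counting. The deposited counts are whole numbers without normalization. The deposited FPKM was made by the authors from the counts and holds 0.0001 where the count is 0. All 55450 gene IDs were found in GENCODE M21, which gave symbols and positions, while the study names RefSeq for annotation, so which of them made the counts is not known.

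Total counts lay between 68878065 and 80935797 per library, 32083 genes had a count, and 3 counts served as the floor for a count of 0, which covers counting error only. Counts were normalized with TMM, filtered with filterByExpr (minimum count 10) and tested as contrasts of 4 group means fitted to the 12 libraries at once with edgeR 4.0.16 under R 4.3.3, by its quasi-likelihood test with Benjamini-Hochberg adjustment over 20612 genes at 0.05. The rule in the study's methods was applied to log2 CPM (prior count 2) by limma 3.58.1. Alternatives were DESeq2 1.42.0, adjusted p-values from limma, other size factors and filters, log2(FPKM + 1), a prior count of 0.5, fits to the 6 libraries compared, replicate blocks and leaving out each library. Leaving out libraries numbered 1 together and summing the counts of a number were added after seeing the data. Simulated data with known differences served to test how calls are counted. Tables and figures were made with Python 3.11.15.

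Members and lists were chosen with earlier results of these data known. Named members are the 5 ciliogenesis factors, those called by edgeR, for each contrast the 3 with the largest difference and the 3 with the smallest p, the 5 most and 5 least abundant by FPKM and those that met the study's rule, together 29. Of each other list the most abundant gene and any called by edgeR are named, with the 20 genes most like the members. *Dnaaf1*, *Dnaaf3*, *Tekt2*, *Tekt4*, *Ak7*, *Cfap53* and genes outside the members named for markers at 0 or for their place in a group were added after their values were seen.

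Whether numbers pair libraries was checked by correlating deviations from group means over 14009 genes. Between CRE and PBS, libraries of the same number had r = 0.728, 0.415 and 0.651 in *AhR f/f* and 0.595, 0.537 and 0.327 in knockout cells, all above those of different numbers, and fits with a block within genotype are given beside the CRE responses.

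The strand used in counting is not stated. *Dnah11*, *Dnaaf1*, *Rsph9*, *Spag17*, *Ccdc39* and *Cfap43* overlap an expressed gene on the opposite strand, and *Dnaaf3* and *Cfap43* one on the same strand, so some of their counts may belong to a neighbour. The same holds for *Dnai1* (2522 counts over the 12 libraries) with *Enho* (864) on the opposite strand. It also holds for *Cfap52* (22329) with *9130017K11Rik* (701). Reads of *Dnah7a*, *Dnah7b* and *Dnah7c*, which are near-identical, may be shared among them.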

Additional observations from a re-analysis of the deposited data

Results flagged for a closer look

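*Ccdc39* stood out because CRE and PBS differed in opposite directions in the genotypes. In *AhR f/f* cells each library was higher with CRE than the library of the same number with PBS (7.23, 6.80 and 8.88 against 6.63, 5.96 and 8.00 CPM), and in knockout cells each was lower (14.8, 6.65 and 9.05 against 15.0, 8.83 and 9.35 CPM). The interaction had a log2 difference of -0.28 (SE 0.42, unadjusted p = 0.524) and was not called in edgeR's quasi-likelihood test, Benjamini-Hochberg adjusted (adjusted p = 1.00). Of all genes tested 2.16% showed this pattern in the direction of *Ccdc39* and 4.48% in either direction, and 1 of the 36 cilium genes did. The gene was picked by the pattern, so its interaction p does not stand apart from that choice. *Ccdc39* overlaps *Ttc14* on the opposite strand.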

How the results depend on the processing

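The number of cilium genes called by edgeR was 0 in all 5 contrasts under the alternatives tried, except for 1 (*Ccno*, lower) with DESeq2 between genotypes with PBS. The number under the study's rule depended on the libraries, and the cause was not tested. With PBS the total of 10 between genotypes (4.1% of all genes) became 2 with log2(FPKM + 1) (1.33%), 6 without both knockout libraries numbered 1 (3.5%), 3 without all 4 libraries numbered 1 (4.48%), and 2 to 19 when single libraries were left out (3.54% to 4.66%). With CRE the total of 13 (3.42%) became 7 with log2(FPKM + 1) (1.19%), 2 without both knockout libraries numbered 1 (3.13%), 0 without all 4 libraries numbered 1 (3.74%), and 0 to 17 when single libraries were left out (3.07% to 4.15%). In the other contrasts the total of 0 became 0 to 1 (CRE in *AhR f/f*, 3.68% to 5.44% of all genes), 0 to 2 (CRE in knockout, 3.33% to 3.89%) and 0 to 2 (interaction, 2.18% to 3.25%) with single libraries left out, 1 and 1 in the latter contrasts without both knockout libraries numbered 1 (3.57% and 2.34%), and 1 and 2 without all 4 numbered 1 (4.02% and 3.15%).

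The medians between genotypes, 0.49 with PBS and 0.52 with CRE, became 0.14 and 0.17 without all 4 libraries numbered 1, with 29 and 30 genes above 0, and with single libraries left out they lay between 0.26 and 0.69 and between 0.32 and 0.70. The ratio of the highest to the lowest library, 2.32, was 2.33 in FPKM and 2.36 without *Tppp3*.

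Between genotypes the libraries share only a number, and same-number correlations were 0.410, 0.0625 and 0.0955 with PBS and 0.403, -0.0185 and 0.0868 with CRE. With the number as a replicate block the medians were 0.49 and 0.50, edgeR called 0 (0.344% and 0.267% of all genes), and the study's rule took 11 and 13 genes (4.75% and 4.16% of all genes). With the counts of a number summed, it took 14 without and 9 with a replicate block (3.03% and 2.95%).

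For 56 values of single genes, 952 values were computed under alternatives. Of these 931 kept their direction and side of the threshold, 1 newly passed it (*Ccno* with DESeq2) and 20 changed sign, none of them called. The cause was not tested. None of the 56 values passed the threshold with all 12 libraries, so keeping their side of it meant staying uncalled. Without all 4 libraries numbered 1, the log2 difference between genotypes with CRE was -0.0042 for *Ccdc39*, -0.16 for *Cfap44*, -0.17 for *Dnah11*, -0.23 for *Hydin* and -0.013 for *Rfx2*, and with PBS -0.38 for *Dnai1* and -0.15 for *Rsph9*. Outside these 56 values, with PBS *Tekt2* was then at -0.12, *Tekt4* at -0.20, *Cfap53* at -0.094 and *Mcidas* at -0.80 (-0.72 without both knockout libraries numbered 1), which left 29 of 36 genes above 0. Without both knockout libraries numbered 1 it was -0.037 for *Cfap44*, -0.020 for *Dnah11* and -0.014 for *Hydin* with CRE, and -0.19 for *Dnai1* and -0.092 for *Rsph9* with PBS. With single libraries left out it lay between -0.034 and 0.68 for *Cfap44*, -0.017 and 0.42 for *Dnah11* and -0.012 and 0.66 for *Hydin* with CRE, and between -0.19 and 0.43 for *Dnai1* and -0.087 and 0.20 for *Rsph9* with PBS.

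Among the members *Mcidas* alone had counts near the floor, with 0 to 19 counts a library. This spread was wider than the floor of 3 counts, and its cause was not tested.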
